A study of Mus musculus with 10 samples.

Results

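A set of 29 mouse genes that mark microglia was followed through RNA pulled down from another cell type, the cholinergic neurons of the medial habenula. The genes were chosen by name as markers of microglia, though with earlier results of these data known, and all 29 were found among the 32531 genes counted. The source was adult Chat-TRAP (DW167) mice, BAC transgenics in which cells that express choline acetyltransferase (Chat), in the habenula cholinergic neurons, make the ribosomal protein Rpl10a fused to EGFP. In translating ribosome affinity purification (TRAP), tagged ribosomes are captured with antibodies to EGFP and the RNA on them is sequenced. The left and the right medial habenula were dissected and homogenised separately and gave 5 pull-down libraries each, so the tag and the line were common to both groups and the side was the only labelled difference. Nothing in the labels tells whether different animals stand behind the libraries of 1 side, so p-values measure only the spread between these libraries, which may be technical. Unpurified tissue RNA was not analysed here.

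Microglia are the resident macrophages of the brain parenchyma. They depend on signalling through the receptor encoded by Csf1r and on the transcription factor PU.1, they survey the tissue with purinergic and fractalkine receptors, and they clear material with the help of complement, Fc receptors and lysosomal proteases. The Chat-driven tag is not meant to mark them. In RNA pulled down from other cells, the members' levels cannot be read as a measure of microglia in the tissue. Fewer microglia and less RNA per microglial cell cannot be told apart, and how much untagged RNA each pull-down carried was not tested.

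Between 42488448 and 67942836 reads per library were assigned to genes, so that 1 CPM (a count scaled to 1e6 gene reads) stood for 42.5 to 67.9 reads. Genes of medial habenular neurons were abundant in all libraries, with a summed level of 4695 to 9478 CPM over 12 genes, Nwd2 and the nicotinic receptor subunit gene Chrna3 being the most abundant, and Chat itself had 84.5 to 195.5 CPM. Replicates 1 and 5 stood apart from replicates 2 to 4 on both sides. Within a side, their counts differed by a chi-square per gene of 1.81 (left) and 1.23 (right), where 1 is counting noise, against 4.18 to 38.8 for the 43 other pairs of libraries. They were closer to each other than any other pair and still differed by more than sampling noise, so they were kept as separate libraries. Each replicate number had its own sequencing lane, which both sides shared except in replicate 1, so lane and replicate number cannot be told apart. Values are therefore given for replicates 1 and 5 (4 libraries) and for replicates 2 to 4 (6 libraries), as a description with no test, since this split was made with earlier results of these data known.

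The 29 members together took a small part of each library. Their summed level in left replicates 1 to 5 was 4.55, 28.3, 38.9, 54.6 and 4.76 CPM. In right replicates 1 to 5 it was 6.18, 19.6, 55.8, 45.1 and 5.18 CPM. The 4 libraries numbered 1 and 5 were the lowest, and the highest library stood 12.3-fold above the lowest. The 2 sides covered almost the same range, with a mean of 26.2 ± 21.8 CPM for left and 26.4 ± 23.0 CPM for right libraries (SD, n = 5 each). Single members were low: the median of their mean levels was 0.602 CPM, against 13.6 CPM over the 16250 genes tested, 8 members reached a mean of 1 CPM and 2 a mean of 3 CPM. The highest count of any member in any library was 868 reads, and 5 members (Aif1, Gpr34, Siglech, Ptprc and Fcrls) had no read in at least 1 library.

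In 23 of the 29 members, every library of replicates 2 to 4 lay above every library of replicates 1 and 5, and in none did it lie below. Over all genes tested these shares were 24.3% above and 22.9% below. Among the 26 members that passed the filter for low counts, the number above was 20. The ranges of Cx3cr1, C1qa, Fcer1g, Cd53, Irf8 and Fcgr3 overlapped. Taken by side, 28 of 29 members lay above in the left libraries, where 36.6% of all genes did, and 23 in the right libraries, where 31.9% did. C1qa was the member that overlapped on the left.

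**Figure D1:**
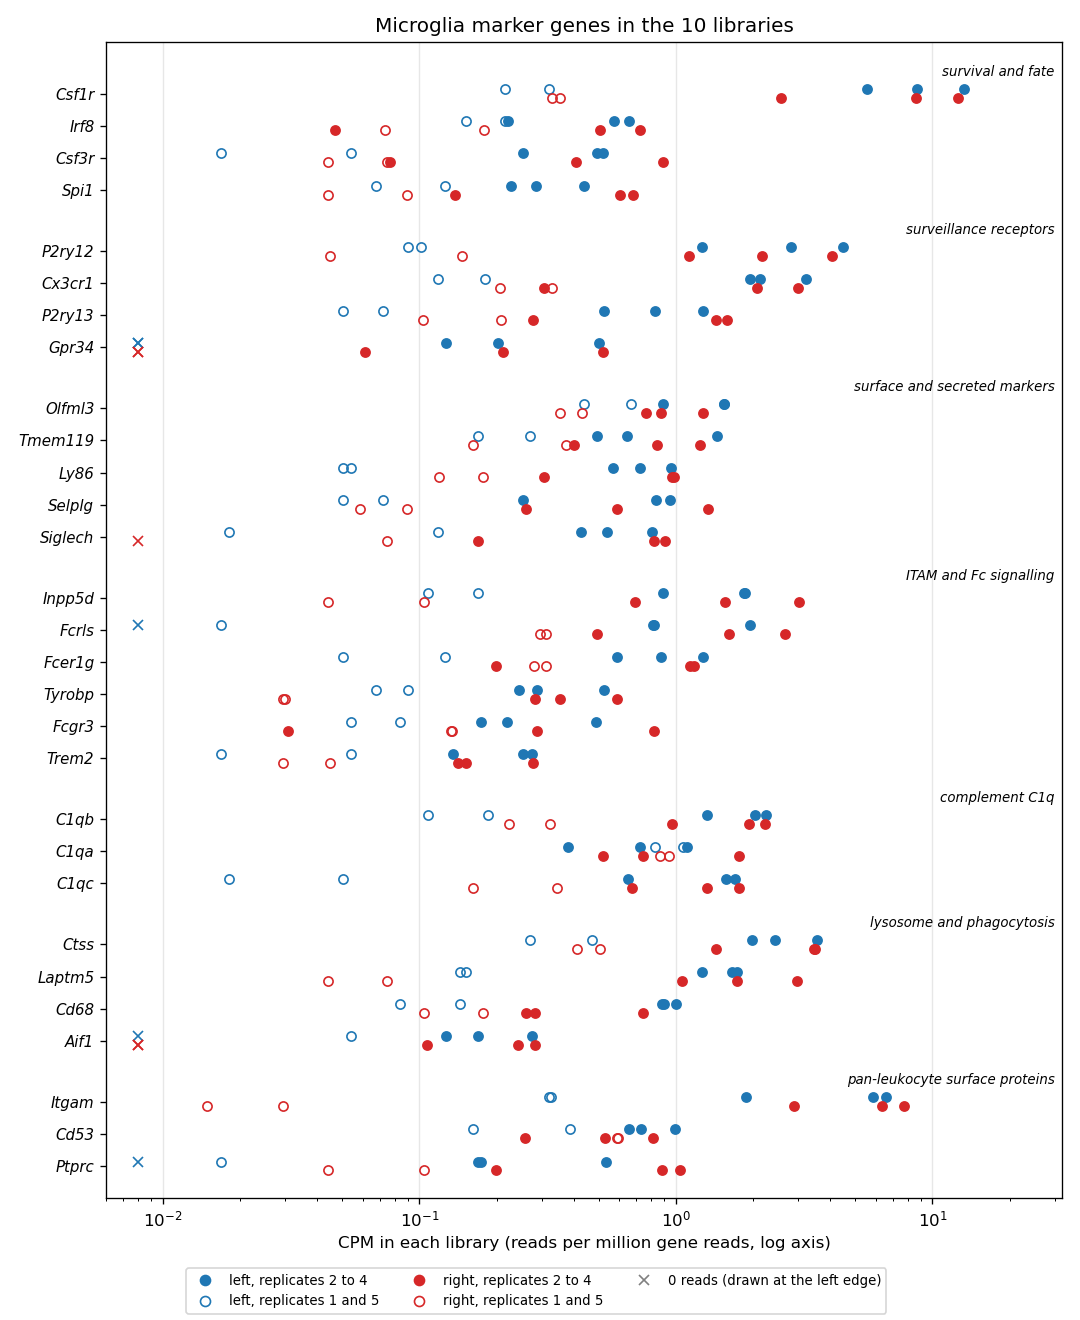
Level of each member in the 10 libraries, in CPM on a log axis, grouped by role; blue points are left and red points right libraries, open circles are replicates 1 and 5, filled circles replicates 2 to 4, and crosses mark 0 reads. Open circles lie to the left of filled ones in 23 members, while blue and red points overlap in all 29.

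The promoters of the most abundant members are shown because PU.1, the factor encoded by the member Spi1, is known to act at many myeloid promoters that lack a strong TATA box. The stretches below run from 150 bases before the annotated start to 30 bases from it on, 5′ to 3′ on the gene's strand, for the 4 members with the highest mean CPM among those with a window used here (RefSeq, GRCm38.p6). Capitals mark GAGGAAG or its reverse complement, core letters of a PU.1 site.
Itgam, chr7:128062490-128062669, plus strand: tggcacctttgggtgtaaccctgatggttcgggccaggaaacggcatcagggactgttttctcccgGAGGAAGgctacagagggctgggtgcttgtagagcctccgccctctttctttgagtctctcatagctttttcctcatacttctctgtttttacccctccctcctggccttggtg
Ctss, chr3:95526636-95526815, plus strand: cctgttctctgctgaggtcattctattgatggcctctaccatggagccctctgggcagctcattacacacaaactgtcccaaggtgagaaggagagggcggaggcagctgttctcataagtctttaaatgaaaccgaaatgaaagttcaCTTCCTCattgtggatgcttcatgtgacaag
P2ry12, chr3:59262956-59263135, minus strand: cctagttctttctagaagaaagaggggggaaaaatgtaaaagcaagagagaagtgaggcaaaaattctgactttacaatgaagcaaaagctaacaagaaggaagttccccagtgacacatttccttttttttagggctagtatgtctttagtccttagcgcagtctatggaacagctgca
Cx3cr1, chr9:120068267-120068446, minus strand: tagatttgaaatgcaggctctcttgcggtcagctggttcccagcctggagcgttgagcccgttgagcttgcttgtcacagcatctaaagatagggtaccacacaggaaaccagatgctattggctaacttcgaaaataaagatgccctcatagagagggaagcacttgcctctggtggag

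In Itgam the letters lay on the gene's own strand from 84 bases before the start, and a second match on the other strand began at base 32 of the gene, outside the stretch shown. In Ctss they lay across the start, on the other strand, and the windows of P2ry12 and Cx3cr1 do not hold these letters. Windows of 300 bases (250 before the start and 50 from it on) were found for 22 members. GAGGAAG occurred on either strand in the windows of 11 of these 22 members, against 15.4% of 27025 genes with windows of the same length. The longer GAGGAAGT, which contains it, occurred in 4 of the 22 members, against 3.69% of genes, and TATAAA in 5 of 22, against 15.7%. A composite motif of PU.1 and IRF and a MEF2 motif each occurred in 1 of 22, against 3.16% and 4.23%; all were searched on both strands. The letters of these motifs were settled after these windows had been looked at, and a match is a description of the sequence, not a site in use.

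Among the genes of survival and fate, Csf1r was the most abundant member by mean CPM over the 10 libraries, though in each library numbered 1 or 5 C1qa had more reads (49 to 63, against 12 to 24). It encodes the receptor for the cytokines CSF1 and IL-34. Its level in left replicates 1 to 5 was 0.320, 5.56, 8.70, 13.2 and 0.216 CPM. In right replicates 1 to 5 it was 0.328, 2.56, 12.6, 8.64 and 0.353 CPM. Libraries 1 and 5 of both sides were low, with 12 to 24 reads, and the lowest of the others stood 7.26-fold above the highest of them, while left and right overlapped. Csf1r lies on chromosome 18 from 61100598 to 61132149 on the plus strand (GRCm38, GENCODE M21) and shares 873 of its 5774 exonic bases with Hmgxb3 on the other strand, so its counts are uncertain to that extent.

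The 3 other genes of this group were far lower. Spi1, the gene of PU.1, had 0.0442 to 0.126 CPM in replicates 1 and 5 and 0.138 to 0.682 CPM in replicates 2 to 4. Csf3r, the receptor of granulocyte colony-stimulating factor, had 0.0169 to 0.0745 CPM and 0.0767 to 0.894 CPM. These 2 genes did not overlap between the sets of libraries, but the gap was narrow. Irf8, a transcription factor that partners PU.1, had 0.0736 to 0.216 CPM and 0.0471 to 0.727 CPM and overlapped through right replicate 4, its lowest library.

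Of the ligands, Il34 and Csf1 were measured in the same libraries. Il34 had 7.11 to 7.76 CPM in replicates 1 and 5 and 2.42 to 6.13 CPM in replicates 2 to 4, the opposite order to its receptor gene Csf1r. Csf1 had 3.92 to 5.36 CPM and 7.34 to 15.1 CPM, the same order as Csf1r. The mean of Il34 was 5.59 ± 2.23 CPM in left and 5.34 ± 2.03 CPM in right libraries, and that of Csf1 8.21 ± 3.63 and 8.16 ± 4.10 CPM (SD, n = 5 each).

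The surveillance receptors were led by P2ry12, the ADP receptor that guides microglial processes towards injury. It had 0.101, 1.27, 2.81, 4.46 and 0.0902 CPM in left replicates 1 to 5. Right replicates 1 to 5 had 0.0447, 1.12, 4.08, 2.17 and 0.147 CPM. The libraries numbered 1 and 5, with 3 to 10 reads each, were again the lowest, and the lowest of the others stood 7.61-fold above the highest of them. P2ry12 lies on chromosome 3 from 59216272 to 59262871 on the minus strand, inside Med12l of the other strand, with which it shares 9 exonic bases.

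Cx3cr1, the receptor for the neuronal chemokine encoded by Cx3cl1, had 0.118 to 0.328 CPM in replicates 1 and 5 and 0.307 to 3.21 CPM in replicates 2 to 4. The overlap rested on right replicate 2, since the next lowest of the 6 libraries, left replicate 3, had 1.94 CPM. Its ligand gene Cx3cl1 had 46.5 to 58.1 CPM and 72.6 to 140 CPM, without overlap. P2ry13, another ADP receptor gene, had 0.0506 to 0.209 CPM and 0.276 to 1.58 CPM. Gpr34, a receptor for lysophosphatidylserine, had no read in any of the 4 libraries numbered 1 and 5, which allows up to 0.0442 to 0.0541 CPM (3 reads). It had 0.0614 to 0.518 CPM in replicates 2 to 4 and did not pass the filter for low counts. The lowest of these, right replicate 2 with 4 reads, lay below the upper limits of left replicates 1 and 5.

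All 5 genes of surface and secreted markers were higher in replicates 2 to 4, with the nearest libraries of the 2 sets between 1.07-fold (Tmem119) and 2.84-fold (Selplg) apart. Olfml3, a secreted glycoprotein of microglia, had 0.438, 0.887, 1.54, 1.54 and 0.668 CPM in left replicates 1 to 5. The right values, in the same order, were 0.432, 0.767, 1.27, 0.871 and 0.353 CPM. Its highest library stood 4.35-fold above its lowest, the smallest such ratio among the members for which it was computed (more than 3 reads in every library). Tmem119, a transmembrane protein used to tell microglia from other macrophages, had 0.162 to 0.372 CPM in replicates 1 and 5 and 0.400 to 1.45 CPM in replicates 2 to 4. Ly86, a partner of a Toll-like receptor homologue, reached 0.985 CPM, Selplg, the ligand of P-selectin, 1.33 CPM, and Siglech, a sialic acid binding lectin, 0.909 CPM, with at most 0.177, 0.0894 and 0.118 CPM in replicates 1 and 5.

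The genes of ITAM and Fc signalling were led by Inpp5d, which encodes the lipid phosphatase SHIP1. It had 0.169, 0.887, 1.84, 1.86 and 0.108 CPM in left replicates 1 to 5. Right replicates 1 to 5 had 0.104, 0.691, 3.01, 1.55 and 0.0442 CPM. No library numbered 1 or 5 reached the lowest of the others, and left and right overlapped. Tyrobp, the ITAM adaptor DAP12, had 0.0294 to 0.0902 CPM in replicates 1 and 5 and 0.244 to 0.591 CPM in replicates 2 to 4. Trem2, a lipid-sensing receptor that signals through that adaptor, had 0.0169 to 0.0541 CPM and 0.135 to 0.276 CPM and did not pass the filter for low counts. Fcrls, an Fc receptor-like protein of rodent microglia, had at most 0.0169 CPM in left and 0.294 to 0.313 CPM in right replicates 1 and 5, and 0.491 to 2.66 CPM in replicates 2 to 4. Fcer1g, the common gamma chain of Fc receptors, had 0.0506 to 0.313 CPM and 0.1995 to 1.28 CPM. Fcgr3, an Fc receptor, had 0.0541 to 0.134 CPM and 0.0307 to 0.824 CPM. Both overlapped through right replicate 2, their lowest library outside replicates 1 and 5. Reads of Fcgr3 may be lost to or shared with near-identical Fc receptor genes, so its values are uncertain.

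The 3 chains of complement C1q, which start the classical complement cascade and lie side by side on chromosome 4 of the minus strand, did not share 1 order of libraries. C1qb had 0.186, 2.03, 1.32, 2.24 and 0.108 CPM in left replicates 1 to 5. The right values, in the same order, were 0.223, 0.967, 2.23, 1.93 and 0.324 CPM. C1qc had 0.0180 to 0.343 CPM in replicates 1 and 5 and 0.650 to 1.76 CPM in replicates 2 to 4, in the same order as C1qb between the sets.

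C1qa differed, a pattern singled out after its values were seen. It had 0.826, 1.11, 0.727, 0.381 and 1.06 CPM in left replicates 1 to 5. In right replicates 1 to 5 it had 0.938, 1.77, 0.742, 0.518 and 0.868 CPM. Its levels in the libraries numbered 1 and 5 lay within the range of the others, and its lowest libraries were left and right replicate 4, which were among the 3 highest for the members' sum. C1qa made up 15.2% (exact 95% binomial interval 11.9 to 19.0%) to 22.4% (17.5 to 27.9%) of the members' reads in replicates 1 and 5. In replicates 2 to 4 its share was 0.697% (0.452 to 1.03%) to 9.01% (7.49 to 10.7%). Csf1r showed the opposite shares, 4.55% (2.37 to 7.81%) to 7.04% (4.29 to 10.8%) in replicates 1 and 5 and 13.1% (11.3 to 15.1%) to 24.2% (22.8 to 25.6%) in replicates 2 to 4. These intervals cover counting error only. No other gene of the annotation shares exonic bases with C1qa (chromosome 4, 136895917 to 136898803).

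Lysosomal and phagocytic genes were led by Ctss, a cysteine protease of the endolysosome. Ctss had 0.472, 1.98, 2.43, 3.53 and 0.271 CPM in left replicates 1 to 5. Right replicates 1 to 5 had 0.507, 1.43, 3.50, 3.46 and 0.412 CPM. The 6 libraries of replicates 2 to 4 were all higher, by at least the 2.82-fold between the nearest libraries of the 2 sets. Laptm5, a lysosomal membrane protein of blood-lineage cells, had 0.0442 to 0.152 CPM in replicates 1 and 5 and 1.06 to 2.97 CPM in replicates 2 to 4. Cd68, a lysosomal glycoprotein, had 0.0843 to 0.177 and 0.261 to 0.998 CPM. Aif1, the gene of the common microglial stain IBA1, had at most 3 reads in any library numbered 1 or 5 and 0.107 to 0.282 CPM in the others, and did not pass the filter for low counts.

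Genes of leukocyte surface proteins shared with blood cells were led by Itgam, the CD11b integrin chain. Itgam had 0.320, 1.87, 5.86, 6.56 and 0.325 CPM in left replicates 1 to 5. In right replicates 1 to 5 it had 0.0149, 2.89, 7.74, 6.36 and 0.0294 CPM. The right libraries numbered 1 and 5 held 1 and 2 reads, where the left ones held 19 and 18. Itgam lies on chromosome 7 from 128062640 to 128118491 on the plus strand and shares 3450 of its 5024 exonic bases with Gm49368 of the same strand in GENCODE M21, so its counts are uncertain. Ptprc, the phosphatase CD45, had at most 0.104 CPM in replicates 1 and 5 and 0.169 to 1.04 CPM in replicates 2 to 4. Cd53, a tetraspanin, overlapped, with 0.162 to 0.596 CPM and 0.259 to 0.990 CPM. Genes of blood leukocytes were low, with a summed level of 0.209 to 0.890 CPM over 13 genes, in no order that followed the members. The list was led by Cd79a, with 0.0745 to 0.590 CPM in replicates 1 and 5 and 0.0235 to 0.721 CPM in replicates 2 to 4. Mpo, the next, had 0.0180 to 0.0589 CPM and 0.0307 to 0.494 CPM. The mean of Cd79a, 0.261 CPM, was above those of the members Tyrobp, Fcgr3, Gpr34, Trem2 and Aif1. S100a8, Nkg7 and Ccr7 had no read in any library.

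Per kilobase of exon, the order of the members changed. The mean levels over the 10 libraries were 1.33 CPM per kb for Ctss, 1.06 for C1qb, 0.910 for Csf1r, 0.860 for C1qa and 0.689 for Fcer1g. P2ry12 followed with 0.639 CPM per kb and Itgam with 0.636 CPM per kb, while Ptprc had 0.0172 CPM per kb, the lowest mean of the 29. The lengths join all annotated exons of a gene, 18313 bases for Ptprc, and may exceed those of its transcripts, so the order depends on them. The order was not that of replicates 1 and 5, where C1qa was the highest member with 0.794 to 1.02 CPM per kb, Ctss had 0.199 to 0.373 and Csf1r 0.0375 to 0.0612 CPM per kb. Between libraries the spread of each of these genes was wider than the gaps between neighbours in this order.

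Markers of other cells outside the tagged neurons were high in the same libraries as the members. Summed CPM of 15 astrocyte genes, led by Slc1a2 and Aldoc, was 109 to 115 in replicates 1 and 5 and 417 to 1643 in replicates 2 to 4, a 15.1-fold range over the libraries. Summed CPM of 15 oligodendrocyte genes, led by Mbp, was 109.5 to 123 and 442 to 1809. All 15 genes of each of these lists were higher in all of replicates 2 to 4. Of 14 genes of endothelium and pericytes, led by Pecam1 and Flt1, 11 were, and their sum was 5.45 to 9.18 CPM and 21.3 to 51.5 CPM. The 12 genes of medial habenular neurons had the opposite order, with 9 lower in all of replicates 2 to 4 and sums of 9020 to 9478 and 4695 to 7997 CPM. Pan-neuronal genes did not share this order. The sum of 10 of them, led by Snap25 and Syt1, was 10930 to 11430 CPM and 11860 to 15490 CPM. Of these, 4 were higher in all of replicates 2 to 4 and 1 lower (40% and 10%, beside 24.3% and 22.9% of all genes tested). The part of any of these cell types in the members' values was not tested.

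The members were 2.95% to 5.37% of the astrocyte sum and 3.01% to 5.40% of the oligodendrocyte sum over the 10 libraries, a range of 1.82-fold and 1.79-fold. Both shares were highest in right replicate 1 and lowest in right replicate 4. Against the sum of endothelium and pericyte genes the members were 62.6% to 87.4% in replicates 1 and 5 and 92.1% to 175% in replicates 2 to 4. Against border and perivascular macrophages they were 148% to 160% and 417% to 681%. The summed level of their 16 genes, led by F13a1 and Mrc1, was 2.97 to 3.87 CPM in replicates 1 and 5 and 4.13 to 9.34 CPM in replicates 2 to 4. Of these genes 3 (18.8%, beside 24.3% of all genes tested) were higher in all of replicates 2 to 4: Mrc1, Stab1 and Cd163. The 24.3% covers only genes that passed the filter for low counts, as 5 of the 16 did, so the shares are not like for like. Mrc1 and Stab1 passed it and Cd163 did not. The defining markers Mrc1, Lyve1 and Cd163 had at most 0.149, 0.0147 and 0.0298 CPM in replicates 1 and 5, and 0.681 to 2.71, 0 to 0.259 and 0.0941 to 0.426 CPM in replicates 2 to 4. F13a1, H2-Eb1 and Cd74, the last 2 also named after their values were seen, overlapped, with 1.15 to 1.59, 0.590 to 1.10 and 0.662 to 1.04 CPM in replicates 1 and 5 and 1.54 to 2.75, 0.659 to 0.903 and 0.282 to 0.899 CPM in replicates 2 to 4.

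**Figure D2:**
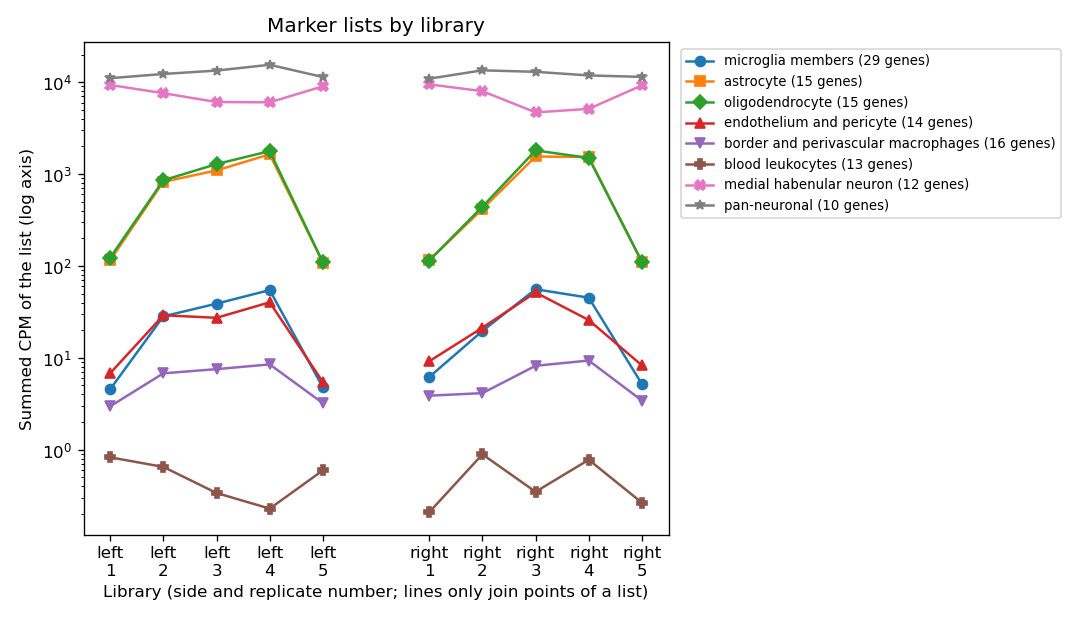
Summed CPM of 8 marker lists in each library, on a log axis, left replicates 1 to 5 and right replicates 1 to 5. The members range from 4.55 to 55.8 CPM with the same 4 libraries lowest as for astrocyte and oligodendrocyte genes, medial habenular genes are highest in replicates 1 and 5, and blood leukocyte genes reach at most 0.890 CPM.

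A second list of 40 genes with microglial expression did not share the members' spread. Its sum was 229 to 246 CPM in replicates 1 and 5 and 249 to 371 CPM in replicates 2 to 4, a 1.62-fold range over the libraries. Of the 40 genes, 14 were higher in all of replicates 2 to 4, against 24.3% of all genes tested, and 1 lower. Only 29 of the 40 passed the filter for low counts, so these shares are not like for like. The sum was led by Ctsd, a lysosomal protease of many cell types, with 109 to 133 CPM and 110 to 172 CPM, and by Mef2c, a transcription factor also of neurons, with 5.47 to 7.03 CPM and 34.1 to 110 CPM. Rgs10, a regulator of G-protein signalling, was the gene that was lower, with 56.4 to 59.5 CPM and 21.5 to 44.2 CPM.

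The comparison the labels state is the left against the right medial habenula. No member passed the test between the sides. Of 16250 genes tested, 0% passed an adjusted p under 0.05 in the quasi-likelihood test of edgeR with Benjamini-Hochberg adjustment, the smallest adjusted p being 1, and 0.554% had an unadjusted p under 0.05. DESeq2 called 0 genes as well, with 141 at an unadjusted p under 0.05. None of the 26 members tested was among either set, and the smallest unadjusted p of a member was 0.253 in edgeR and 0.228 in DESeq2. In none of the 29 members did the left and the right libraries fall into ranges that did not overlap.

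The median log2 fold change of the members, left minus right, was −0.14, beside −0.01 over all genes, with 8 members above 0 and 18 below. It rested on single libraries: without left replicate 1 or 5 it was 0.17 or 0.15, and without right replicate 3 or 4 it was 0.34 or 0.20. The intervals were wide. Csf1r had a log2 fold change of 0.14 (95% interval −2.57 to 2.86), with means of 5.60 ± 5.58 CPM (left) and 4.90 ± 5.49 CPM (right; SD, n = 5 each). Itgam had −0.23 (−3.22 to 2.75), P2ry12 0.16 (−2.55 to 2.87), Inpp5d −0.19 (−2.61 to 2.22), Ctss −0.14 (−1.92 to 1.64) and C1qb 0.01 (−1.96 to 1.98). Narrower intervals belonged to C1qa, with −0.24 (−1.10 to 0.62), and to Olfml3, with 0.43 (−0.60 to 1.46). The estimates farthest from 0, named after their values were seen, were those of Ptprc, −1.37 (−3.87 to 1.14), and Cd68, 0.90 (−0.77 to 2.58). In this fit, whose spread includes the difference between replicates 1 and 5 and replicates 2 to 4, most of these intervals include differences of several-fold.

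**Figure D3:**
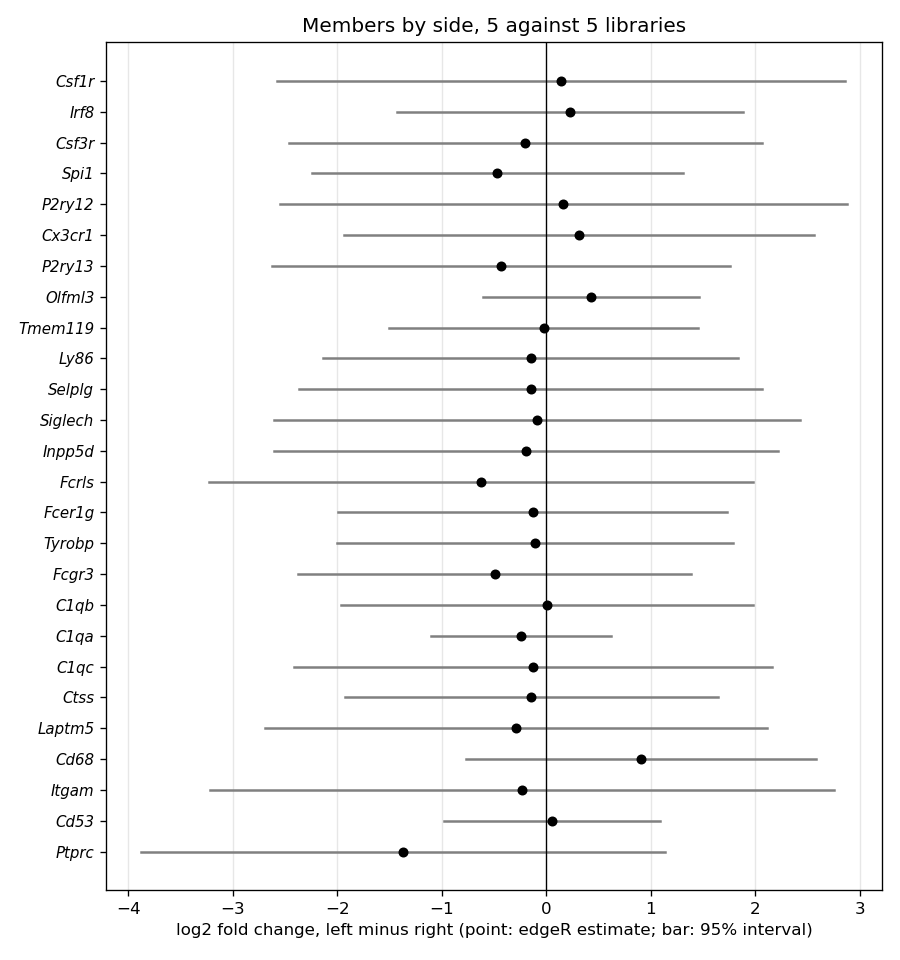
Log2 fold change of the 26 members tested, left minus right, with the edgeR estimate as a point and the 95% interval as a bar. All 26 bars cross 0, from Ptprc at −1.37 to Cd68 at 0.90, and the bar of C1qa is among the shortest.

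Within replicates 1 and 5 alone, where the members were at their lowest, the left and the right pair of libraries differed. In the same test on these 4 libraries, 5.74% of 15569 genes were higher on the left and 7.06% higher on the right, in all 1992 genes. The pairs of libraries within a side were much closer to each other than pairs across sides, whose chi-square per gene was 4.18 to 5.05, and the labels do not say that they are separate samples. These p-values are too small if the pairs share their RNA. With pairs this close, the test cannot tell a difference of side from a difference between single pull-downs. Of the 29 members, 13 passed the filter there and 4 were called, 1 of them higher on the left and 3 on the right. All 4 passed the filter only through the side where they were higher, with at most 7 reads in each library of the other side. Their ratios and p-values are therefore a description and no support for a difference of side.

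Itgam was the one higher on the left, with 37 reads in the left pair against 3 in the right pair, a ratio of 14.5 (exact 95% interval 4.60 to 73.6, counting error only; adjusted p = 0.00924, edgeR). Fcrls was higher on the right, with 41 reads against 1, a ratio of 34.8 (5.91 to 1409; adjusted p = 0.00998, edgeR). C1qc had 34 reads on the right against 4, a ratio of 7.22 (2.58 to 28.0; adjusted p = 0.0317, edgeR). Fcer1g had 40 against 10, a ratio of 3.40 (1.67 to 7.62; adjusted p = 0.0401, edgeR).

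None of the 4 kept apart by side in replicates 2 to 4, where Itgam had 1.87 to 6.56 CPM in left and 2.89 to 7.74 CPM in right libraries, and Fcrls 0.811 to 1.95 and 0.491 to 2.66 CPM. In the test on replicates 2 to 4 alone edgeR called 0 genes, with 72 at an unadjusted p under 0.05. Whether the effect of side differed between the sets of replicates was not tested. Csf1r, with 31 and 46 reads, and Ctss, with 43 and 62 reads in the left and the right pair, were not called within replicates 1 and 5.

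**Figure D4:**
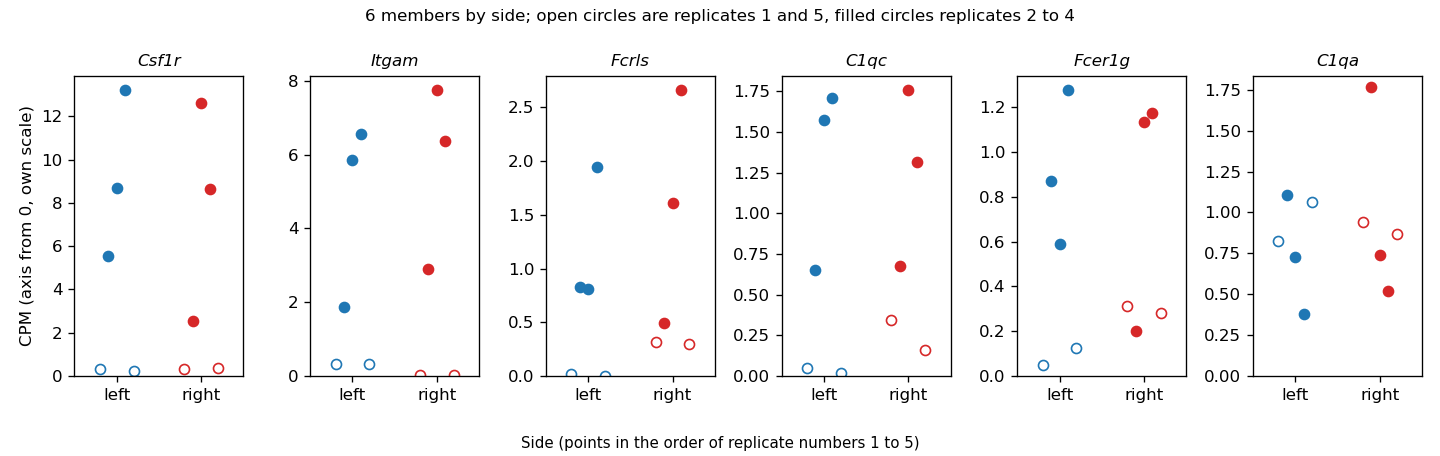
CPM of 6 members by side, each on its own axis from 0, with open circles for replicates 1 and 5 and filled circles for replicates 2 to 4, placed in the order of replicate numbers. Open circles lie at the bottom for Csf1r and Itgam, differ by side for Itgam, Fcrls, C1qc and Fcer1g, and lie among the filled ones for C1qa.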

How the data were processed

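RNA of 10 TRAP pull-downs, 5 left and 5 right, was analysed from the authors' deposited counts, raw reads per gene with no normalisation. The submitters' processing notes name STAR 2.0.0e, HTSeq and the build mm10; the annotation and the strand setting are not known here. Of 32537 rows, 6 name no gene and were left out; reads outside genes were 13.6% to 18.9% and ambiguous reads 2.25% to 2.81%.

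Levels are CPM over gene reads. Sides were compared over all genes with edgeR 4.0.16 in R 4.3.3 (TMM, quasi-likelihood F test, filter at a minimum count of 10, two-sided, threshold 0.05) and, as an alternative, DESeq2 1.42.0; the fit was tested on simulated data. Library pairs were compared by chi-square over genes with 20 to 500 reads. Exon lengths and overlaps came from GENCODE M21 (GRCm38), promoters from RefSeq. Replicate numbers were not used to pair samples: the correlation of deviations was 0.096 in replicate 2, under the 0.1 required. It was 0.86, 0.806, 0.715 and 0.873 in replicates 1, 3, 4 and 5. Libraries of unlike number reached similar values, such as 0.859 for left replicate 4 and right replicate 3. These correlations therefore cannot tell whether the samples are paired.

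The members, gene lists and tests were chosen with earlier results of these data known. Members averaging 3 CPM or more and the leading member of each role by CPM are given library by library, with the named ligands Il34, Csf1, Cx3cl1, Cd200 and Tgfb1 and the 2 most abundant genes of each list; others were named after their values were seen, and 1 gene is not reported here. Figures were drawn with matplotlib 3.10.9.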

Additional observations from a re-analysis of the deposited data

Results flagged for a closer look

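Cd68 in the right libraries stood out because of 1 sample far from the others. Right replicate 3 had 0.742 CPM, the next highest right library 0.282 CPM and the lowest 0.104 CPM, so that the gap to the nearest library was 0.721 of the whole range, above the critical value of 0.71 for 5 samples. It was the only one of 58 such comparisons, 29 members on 2 sides, to pass, and chance alone flags about 1 in 20.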

How the results depend on the processing

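Counts of genes and of members called by side stayed at 0 with other size factors, library totals, no filter, DESeq2, replicates 2 to 4 alone, replicates 1 and 5 summed and each library left out. They became 1992 genes and 4 members with replicates 1 and 5 alone; the cause was not tested. With the replicate block edgeR called 0 genes and 0 members, with 297 genes and 1 member at an unadjusted p under 0.05 and a median member log2 fold change of −0.07. The block narrowed the intervals of single members, to −0.39 to 0.78 for Csf1r, −0.51 to 0.84 for P2ry12 and −0.63 to 0.35 for Ctss, and changed no call. Both sides share a lane for each replicate number except replicate 1, but whether the numbers pair the samples is not known. Leaving out each library moved the members' median from −0.55 to 0.34, the count of members higher in replicates 2 to 4 from 23 to 26, and the ratio of the highest to the lowest summed level from 11.7 to 12.3; that ratio was 10.2 without Csf1r and 12.8 or 12.9 with scaled library sizes.

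No member's log2 fold change by side was called over the 10 libraries, and signs changed as follows; the cause was not tested. With the replicate block it was 0.21 for Itgam, −0.16 for C1qb and 0.14 for Inpp5d. With replicates 1 and 5 alone it was −0.33 for Csf1r, 3.74 for Itgam (called there), −0.88 for C1qb and 0.062 for C1qa. With DESeq2 it was −0.0030 for C1qb. With each library left out it ran from −0.45 to 0.88 for Csf1r, −0.73 to 0.34 for Itgam, −0.56 to 0.24 for Ctss, −0.53 to 0.98 for P2ry12, −0.35 to 0.42 for C1qb, −0.56 to 0.68 for Inpp5d and −0.39 to 0.070 for C1qa. Depth limits the low members: 21 of 29 had at most 5 reads in some library.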

Other observations

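Genes known from microglia that respond to damage differed in level and in order. Fth1, which stores iron, and Ctsb, a lysosomal protease, are made by many cells and had 314 to 327 CPM and 225 to 252 CPM in replicates 1 and 5, above the 210 to 303 CPM and 166 to 213 CPM of replicates 2 to 4. Apoe, an apolipoprotein also made by astrocytes, had 2.51 to 3.28 CPM and 6.20 to 24.9 CPM. Of the 20 genes of this list, 8 were higher in all of replicates 2 to 4 (40%, beside 24.3% of all genes tested) and 4 lower (20%, beside 22.9%). Only 10 of the 20 passed the filter for low counts, so these shares are not like for like. The 4 lower genes, Cd63, Ctsb, Fth1 and B2m, all passed it. Tnf and Ccl3 had no read in any library.

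Complement genes outside C1q were higher in all of replicates 2 to 4 in 7 of 14 cases (50%, beside 24.3% of all genes tested). Of the 14, 10 passed the filter for low counts, so here too the shares are not like for like. Among the 7 was Clu, a regulator also made by astrocytes, with 10.7 to 11.95 CPM and 22.9 to 74.2 CPM. Cr1l, the next most abundant, had 10.5 to 12.6 CPM and 10.4 to 13.4 CPM. Of the signals that quiet microglia, Cd200, a surface protein of neurons, had 98.4 to 111 CPM and 85.7 to 107 CPM, and Tgfb1, a cytokine, 0.0337 to 0.147 CPM and 0.0614 to 0.636 CPM. Tgfb2, the most abundant of the signalling genes listed, had 153 to 161 CPM and 94.0 to 137 CPM.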
